A study of Mus musculus with 38 samples.

Results

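The chromatin of 44 homeobox genes that lie outside the Hox clusters was examined in mouse embryonic stem cells (mESCs) with and without IκBα. The genes were listed by name, as members of the Dlx (6), Irx (6), Nkx (8), Lhx (7), Isl (2), Emx (2), Barhl (2), Msx (2), En (2), Pitx (2) and Alx (2) families with Six2, Six3 and Six6. They are 44 of the 21938 protein-coding genes that GENCODE M21 places on chromosomes 1 to 19, X and Y. Each gene was read in its window, which is the gene body with 5 kb on either side on GRCm38. All 44 windows were found, and they measured 11896 bp (Nkx2-9) to 63654 bp (Lhx4).

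Homeobox genes encode transcription factors that bind DNA through a homeodomain, and those outside the Hox clusters set up organs and parts of the nervous system. Dlx genes act in forebrain interneurons and the face, Irx genes in neural and heart patterning, Six2, Six3 and Six6 in kidney, eye and forebrain, Nkx genes in ventral neural tube, thyroid, lung, heart and pancreas, and Lhx and Isl genes, whose products carry LIM domains, in motor neurons, pituitary and forebrain. In embryonic stem cells many such genes are held silent by Polycomb repressive complex 2, which deposits H3K27me3, while their promoters also carry H3K4me3, a state called bivalent. H3K27ac marks active promoters and enhancers, H3K4me1 marks enhancers, and H3K9me3 marks heterochromatin.

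The study knocked out Nfkbia, which encodes IκBα, and profiled these 5 modifications by chromatin immunoprecipitation followed by sequencing, with 3 IκBα-WT (WT) and 3 IκBα-KO (KO) libraries for each. All cells were of the ES-E14TG2a line, grown on gelatin in serum with leukaemia inhibitory factor and taken at 0 h, before any differentiation. KO cells were single clones obtained with Cas9 and 2 guide RNAs against exon 1 of Nfkbia. WT cells were clones that had received scrambled guide RNAs, and the study describes 3 independent clones per genotype. The 30 lists of called regions were used, and each genotype had 1 input per experiment, so the input of a genotype was never replicated. H3K27ac and H3K4me1 shared the same input of each genotype, so their input values are not independent.

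The lists for H3K4me3 held 21836 to 26806 calls per library and no read counts, so the depth behind a call is not known from them. In H3K27me3 calls each library had 8910890 to 10938375 ChIP reads, in H3K9me3 calls 8548342 to 12105343, in H3K27ac calls 22943091 to 28339766 and in H3K4me1 calls 34736939 to 35951506. Nfkbia itself did not check the labels, since H3K4me3 covered 1226, 1168 and 1523 bp of its window in WT replicates 1 to 3 and 235, 820 and 1286 bp in KO replicates 1 to 3 (two-sided exact permutation p = 0.3). Markers of pluripotent cells had H3K27ac calls in 10 of 10 genes in every library, over 308213 to 319421 bp in the WT and 334241 to 346441 bp in the KO, and 3 of the 10 had H3K27me3. Of 16 markers of differentiated cells, 12 to 15 had an H3K27ac call, over 142382 to 155254 bp in the WT and 141285 to 153785 bp in the KO, and all 16 had H3K27me3 in all libraries. The part of either marker list in the results below was not tested.

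The first question was which marks these genes carried in WT cells. All 44 members had H3K27me3 and H3K4me1 calls in all 6 libraries, and 42 had H3K4me3 calls in all 6. Of all protein-coding genes, 44.4% had H3K27me3, 76.0% H3K4me1 and 61.7% H3K4me3 calls in all 6. H3K4me3 was missing only at Dlx5 in WT replicate 3 and at Pitx1 in KO replicate 1. Within 1 kb of the annotated 5′ end, 32 members (72.7%) had both H3K4me3 and H3K27me3 in all 3 WT libraries, against 20.3% of all protein-coding genes. In the KO the count was 29, against 19.5% of all genes. H3K27ac was called within 1 kb of the 5′ end in all 3 WT libraries at 33 members and in all 3 KO libraries at 29, while the shares of all genes were 56.7% and 54.6%. H3K9me3 was less common, with a call in any library at 13 of the 44 windows and at 12110 of the 21938 protein-coding genes.

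H3K27me3 at these genes was broad and dense. In 19 members it covered the whole window in all 6 libraries, among them En1 and En2, which pattern the midbrain and hindbrain, and Nkx2-1, which specifies thyroid, lung and ventral forebrain. Another 15 were covered over at least 90% in every library. The shares of all genes at these 2 cutoffs are not given here. By a looser rule, on the WT mean alone, 1102 of all 21938 genes had H3K27me3 over more than 80% of the window. The median WT window share was 99.97% for members, 100% for Hox genes, 94.7% for other homeobox genes and 3.2% for all genes. The 10 less covered members were Dlx3, Irx6, Nkx2-5, Lhx3, Lhx4, Lhx8, Lhx9, Barhl1, Alx1 and Alx4, and the least covered was Alx1, a gene of face development, at 35.4% of the window in the WT. The median member had 95.7 H3K27me3 reads per kb of call in the WT, while the median of all genes called in all 6 libraries had 39.6. By the same measure Hox genes had 145.3 and other homeobox genes 87.7. Among members this density ran from 57.5 at Alx1 to 130.0 at Six3, an eye and forebrain gene.

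Promoter sequences of 300 bases, 250 before and 50 after the RefSeq start on GRCm38.p6, were at hand for 32 of the 44 members. They were rich in the dinucleotide CG, with a median of 21.5 occurrences and a range of 4 to 42, against a median of 7 over 32851 promoters. Those promoters belong to 27025 genes, a wider set than the 21938 protein-coding genes used for windows. Each of the 32 members has 1 promoter there. CG itself is common, since 94.6% of all promoters hold at least 1. The motif TAATTA, a core that many homeodomains bind, was found on either strand in 3 of the 32 (9.38%) and in 5.29% of all promoters. TATAAA was found in 1 (3.12%) against 13.6%, and the κB motif in 2 (6.25%) against 4.51%, also on either strand. None of these motifs contains another. A match describes letters only.

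Of these 32 promoters, H3K4me3 calls touched 14 in all 6 libraries and 7 in none. The same counts were not made over all RefSeq promoters. The RefSeq start lay within 500 bp of the GENCODE 5′ end at 25 of the 32. Among the 7, it lay 6133 bp away at Lhx9, 7226 bp at Six3 and 7841 bp at Nkx2-2. At Barhl1, Lhx2, Lhx3 and Lhx8 it lay 0 to 99 bp away. Lhx4, touched in all 6 libraries, had a start 9657 bp away. Calls covered more of the promoter in every WT library than in every KO library at Emx2 and Nkx2-1, and less at Irx2. Among all RefSeq promoters with a call in any library, 4.68% were lower and 9.77% higher in the KO by the same rule. These 3 promoters and 2 others are given in the direction of transcription, with each CG in capitals. Emx2 and Irx2 were picked after their values were seen, and Irx4 and Lhx8 show a promoter under H3K4me3 in every library and one under none.
Nkx2-1: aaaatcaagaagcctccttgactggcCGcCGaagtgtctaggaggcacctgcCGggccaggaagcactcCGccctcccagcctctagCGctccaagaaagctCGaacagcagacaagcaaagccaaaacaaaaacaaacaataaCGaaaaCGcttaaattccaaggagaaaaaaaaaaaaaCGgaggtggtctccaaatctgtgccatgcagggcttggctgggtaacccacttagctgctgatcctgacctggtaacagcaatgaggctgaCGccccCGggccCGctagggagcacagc
Emx2: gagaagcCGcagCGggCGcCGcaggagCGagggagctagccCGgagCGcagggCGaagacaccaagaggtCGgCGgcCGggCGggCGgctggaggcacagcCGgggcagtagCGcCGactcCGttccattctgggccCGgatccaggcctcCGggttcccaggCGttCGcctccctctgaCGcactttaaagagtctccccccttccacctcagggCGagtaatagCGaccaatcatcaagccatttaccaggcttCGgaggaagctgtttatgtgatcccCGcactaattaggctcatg
Irx2: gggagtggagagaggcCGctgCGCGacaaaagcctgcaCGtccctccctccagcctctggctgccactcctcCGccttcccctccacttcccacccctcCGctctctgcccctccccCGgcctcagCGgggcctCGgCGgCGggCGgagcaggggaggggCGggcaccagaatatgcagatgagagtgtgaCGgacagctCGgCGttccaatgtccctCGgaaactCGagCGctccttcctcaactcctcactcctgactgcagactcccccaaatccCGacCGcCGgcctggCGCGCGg
Irx4: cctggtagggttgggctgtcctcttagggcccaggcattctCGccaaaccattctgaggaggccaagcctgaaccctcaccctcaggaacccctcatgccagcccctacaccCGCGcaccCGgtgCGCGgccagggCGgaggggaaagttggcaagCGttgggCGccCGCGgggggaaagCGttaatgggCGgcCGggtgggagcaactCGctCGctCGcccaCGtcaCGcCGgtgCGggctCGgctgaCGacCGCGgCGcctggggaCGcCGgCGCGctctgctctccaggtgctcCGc
Lhx8: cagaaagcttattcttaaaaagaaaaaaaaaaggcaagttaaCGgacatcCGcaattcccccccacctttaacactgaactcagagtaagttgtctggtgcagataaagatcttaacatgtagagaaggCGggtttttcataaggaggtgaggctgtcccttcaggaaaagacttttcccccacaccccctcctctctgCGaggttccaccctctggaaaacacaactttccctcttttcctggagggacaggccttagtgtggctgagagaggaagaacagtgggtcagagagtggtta
The Nkx2-1 promoter (chr12:56536859-56537158, minus strand) holds 12 CG, and H3K4me3 calls covered 98, 95 and 98 of its bases in WT replicates 1 to 3 and 0 in each KO library. The Emx2 promoter (chr19:59458440-59458739, plus strand) holds 26, with 127, 96 and 235 bases covered in the WT and 0 in each KO library. Its start lies 318 bp from the 5′ end that GENCODE gives. The Irx2 promoter (chr13:72628570-72628869, plus strand) holds 25, and was covered over 88, 181 and 130 bases in the WT and over all 300 in each KO library. The Irx4 promoter (chr13:73260247-73260546, plus strand) holds 31 and was covered over 261 to 300 bases in all 6 libraries. The Lhx8 promoter (chr3:154330511-154330810, minus strand) holds 4 and was under no H3K4me3 call.

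H3K4me3 was compared by the bp of each window that calls covered. In the KO it lay over less of these windows at 12 members, where all 3 KO libraries were below all 3 WT libraries, and over more at none. The 12 were Barhl1, Lhx6, Six3, Nkx2-1, En1, Dlx3, Barhl2, Irx4, Emx2, Lhx3, Lhx5 and Nkx2-3. Of the 15151 genes with a call in any library, 7.25% were lower and 24.5% higher by this rule, so that the members' 27.3% lower and 0% higher stood the other way round. The median difference, KO minus WT, was −232 bp over the members and 113 bp over all genes. No single gene could pass 0.05, as the exact permutation test of 3 against 3 gives at least 0.1, the value for each of the 12. Other lists showed 13 lower and 5 higher of 58 for other homeobox genes, 6 and 1 of 39 for Hox genes, 2 and 1 of 9 for Pax genes, and 196 and 66 of 1006 for all genes with H3K27me3 over more than 80% of the WT window. These counts are descriptions, and the lists were not tested against each other. The pluripotency markers went the other way, with 7 of 10 higher and a summed H3K4me3 coverage of 31052 to 32741 bp in the WT and 44233 to 54624 bp in the KO. The markers of differentiated cells had 3 higher and 1 lower of 15. With equal numbers of top-ranked calls 15 members were lower and 0 higher, and 8 of the 12 were among them. Within 1 kb of the 5′ end 8 were lower and 2 higher, and only 4 of the 12 were still lower in every KO library. Without WT replicate 3 or without KO replicate 1, 13 members were lower and 4 higher, and without KO replicate 3, 17 were lower and 2 higher. The shares of all genes under these other settings are not given here, so 7.25% and 24.5% are no background for these counts.

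**Figure D1:**
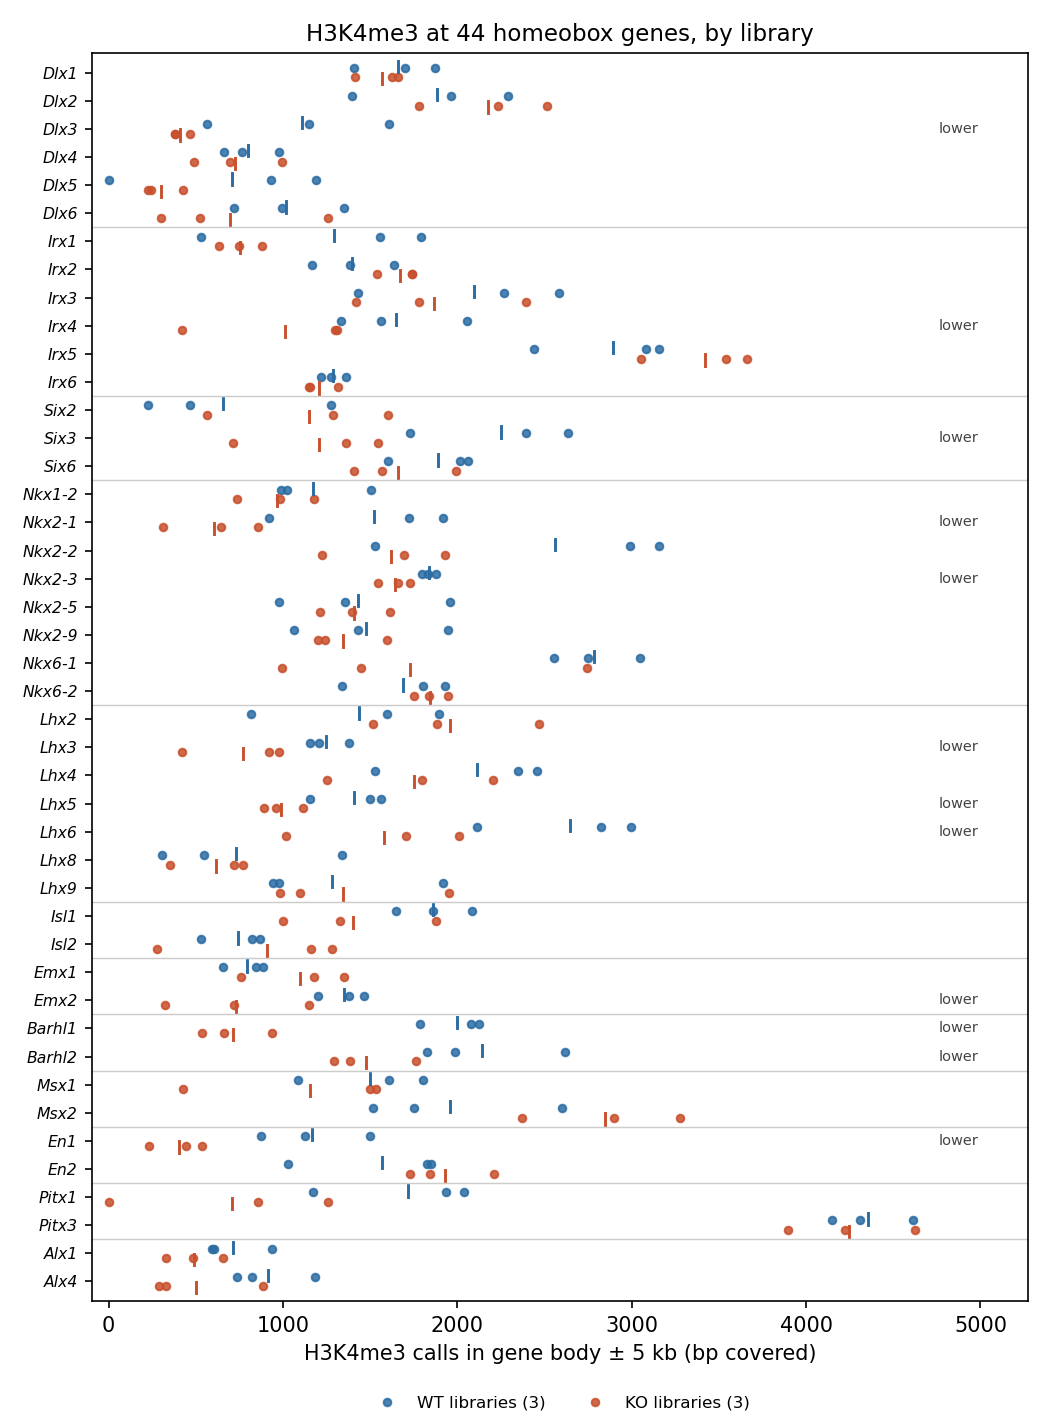
Base pairs of each member's window (gene body with 5 kb on either side) under H3K4me3 calls, with 1 point per library (WT blue, KO red) and a tick at each group mean. The words lower or higher mark members whose 3 KO libraries lie entirely below or above the 3 WT libraries, and all 12 marked members are lower.

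The 4 members with the largest differences among the 12 were Barhl1, Lhx6, Six3 and Nkx2-1. Barhl1, a gene of inner ear and cerebellar neurons, had 2081, 2125 and 1784 bp in WT replicates 1 to 3 and 665, 534 and 940 bp in KO replicates 1 to 3. The means were 1997 ± 185 bp and 713 ± 207 bp (SD, n = 3 each; exact permutation p = 0.1), and the lowest WT library was well above the highest KO library. Lhx6, which specifies cortical interneurons, had 2826, 2114 and 2995 bp in the WT and 1020, 1705 and 2012 bp in the KO, so its groups came close at WT replicate 2 and KO replicate 3. Six3 had 2637, 2392 and 1729 bp in the WT and 713, 1362 and 1545 bp in the KO, with means of 2253 ± 470 and 1207 ± 437 bp (SD, n = 3 each). Nkx2-1 had 1723, 918 and 1920 bp in the WT and 315, 855 and 646 bp in the KO, and here WT replicate 2 was just above KO replicate 2.

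At En1 the 3 WT libraries had 1125, 1500 and 877 bp and the 3 KO libraries 535, 230 and 447 bp, a change of −65.4%. Its paralogue En2 had 1827, 1031 and 1850 bp in the WT and 1731, 2210 and 1841 bp in the KO, so the groups overlapped. The highest fold enrichment over input of any call in the window, as MACS2 gave it, also moved apart at these genes. At En1 it was 5.36, 7.57 and 7.58 in the WT and 4.76, 4.75 and 4.94 in the KO, while at En2 it was 7.12, 4.50 and 5.63 in the WT and 10.9, 13.8 and 12.3 in the KO. Over the members, fold enrichment was lower without overlap at 11 and higher at 5 (Irx2, Irx5, Lhx2, Isl1 and En2), against 13.1% and 19.3% of all genes. Both measures were lower at Six3, Nkx2-1, Lhx5, Emx2 and En1.

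By family, 3 of 7 Lhx genes were lower in covered bp (Lhx3, Lhx5 and Lhx6), both Barhl genes, 2 of 8 Nkx genes (Nkx2-1 and Nkx2-3), and Dlx3, Irx4, Six3, Emx2 and En1 alone of their families. None of the Isl, Msx, Pitx or Alx genes was. Mean coverage was lower in the KO at 33 members and higher at 11, and over all genes lower at 5103 and higher at 10042. The largest mean difference upward was at Msx2, a target of BMP signalling, with 1751, 1519 and 2603 bp in the WT and 2371, 3279 and 2896 bp in the KO. There the highest WT library lay above the lowest KO library. Large mean differences with overlapping groups were also seen at Nkx6-1, a gene of motor neurons and pancreatic β cells, with 2553, 2747 and 3049 bp in the WT and 1446, 2743 and 996 bp in the KO.

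Summed over the 42 merged windows of the members (937849 bp), H3K4me3 covered 7.72%, 6.37% and 8.50% in WT replicates 1 to 3 and 5.18%, 6.87% and 6.68% in KO replicates 1 to 3. The means were 7.53 ± 1.08% and 6.24 ± 0.93% (SD, n = 3 each), and the groups overlapped because WT replicate 2 was below KO replicates 2 and 3. KO replicate 1 was the lowest of the 6 libraries at 17 members. Over the genome the covered sequence went from 18.2 Mb to 20.9 Mb, a change of 14.6% in the other direction. Within 1 kb of the 5′ ends the members' covered bp changed by −10.1% (29162 ± 2036 to 26229 ± 3057 bp, SD, n = 3 each) and in the rest of the windows by −22.1% (41542 ± 8378 to 32374 ± 5714 bp). Neither difference exceeded the sum of the spreads.

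**Figure D2:**
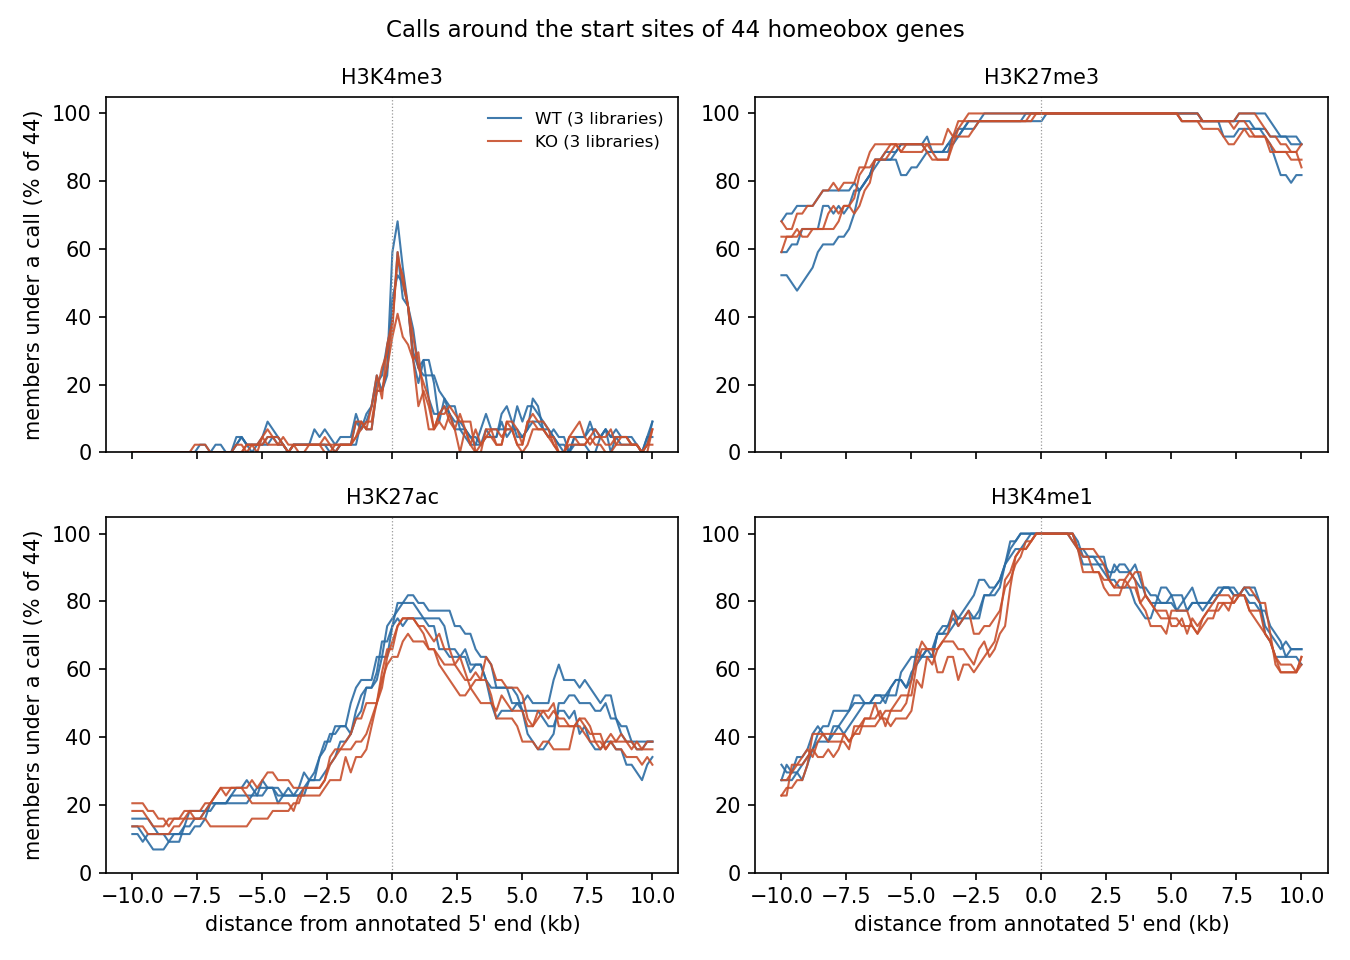
Share of the 44 members under a call at each distance from the annotated 5′ end, read every 200 bp along the direction of transcription, with 1 panel per mark and 1 line per library (WT blue, KO red). H3K4me3 peaks 200 bp after the 5′ end at 52.3% to 68.2% of members in the WT and 40.9% to 59.1% in the KO, H3K27me3 covers nearly all members near the 5′ end in both genotypes, and H3K4me1 at 2000 bp upstream lies at 81.8% to 84.1% in the WT and 63.6% to 72.7% in the KO.

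H3K27me3 was compared next, since the study asks about Polycomb marks in the KO. Its extent could hardly change at windows that were already full, and coverage of the merged windows averaged 89.6 ± 1.48% for WT and 90.4 ± 0.28% for KO libraries (SD, n = 3 each). Covered bp were higher in every KO library at 2 members and lower at none, against 10.9% higher and 7.61% lower among 13437 genes. These were Alx4, a craniofacial gene, with 36217, 39017 and 35817 bp in the WT and 43617, 46617 and 42617 bp in the KO, and Irx6, with 15669, 14669 and 14713 bp against 16669, 15713 and 16669 bp.

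In H3K27me3 reads per kb of call, none of the 44 members passed the threshold of 0.05 under edgeR's quasi-likelihood test, Benjamini-Hochberg adjusted over 9733 genes, where 1.05% of genes were higher and 0.524% lower. At an unadjusted p under 0.05 there were 10, all with negative log2 fold changes, while 6.77% of the 9733 genes were lower and 8.23% higher by that measure. DESeq2 called 1 member, Msx2, as lower, and edgeR called 1 when WT replicate 2 was left out. The member log2 fold changes had a median of −0.09, against 0.003 for all genes tested, and 36 of 44 were negative. Msx2 had the lowest, −0.33 ± 0.09 (SE), at an adjusted p of 0.114 in edgeR, with 83.3, 73.7 and 85.5 reads per kb in the WT and 71.4, 63.0 and 58.6 in the KO. Its KO libraries lay below its WT libraries. Irx3 had the highest, 0.29 ± 0.23, with overlapping groups of 70.5 to 98.7 reads per kb in the WT and 67.7 to 142.7 in the KO. Irx3 and Irx6 lie on chromosome 8, where input is taken up below. The log2 KO/WT of input in the H3K27me3 calls had a median of 0.135 over the members and 0.172 over all genes. Its part was not tested.

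H3K27ac covered less of the windows at 11 members and more at 5 in every KO library, against 8.2% and 21.6% of 16607 genes. The median difference was −584 bp over the members and 631 bp over all genes. The 11 lower members were Emx2, Nkx2-1, Barhl2, Lhx9, Lhx2, Nkx6-1, Alx4, Dlx2, Six3, Six2 and Lhx4. The 5 higher members were Irx3, Irx5, Irx6, Dlx3 and Dlx4. These are not independent, as the 3 Irx genes are neighbours on chromosome 8, where input is taken up below. Dlx3 and Dlx4 lay under a shared H3K27ac call in 3 libraries. Among other homeobox genes 12 were lower and 4 higher of 55, and among Hox genes 22 and 0 of 39. Pax genes went the other way, with 1 lower and 3 higher of 8. Genes with H3K27me3 over most of the WT window, as defined above, were near balance, with 148 lower and 144 higher of 1010. When each list was limited to the same number of top-ranked calls, 6 members were lower and 6 higher, and Dlx2 and Lhx4 turned to a higher mean in the KO. The shares of all genes under that limit are not given here.

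Several of the 11 are regulators of brain or gonad development. Lhx9, which acts in the early gonad, had 7600, 7000 and 8800 bp in the WT and 1400, 2600 and 0 bp in the KO. Emx2, a gene of cerebral cortex and urogenital development, had 9357, 9557 and 9200 bp in the WT and 4200, 4400 and 3400 bp in the KO, or 9371 ± 179 and 4000 ± 529 bp (SD, n = 3 each; exact permutation p = 0.1). Nkx2-1 had 8000, 8800 and 11643 bp in the WT and 4800, 5400 and 4600 bp in the KO. Barhl2, which acts in retinal and forebrain neurons, had 6600, 8200 and 9200 bp against 3400, 3400 and 3800 bp. At each of these the highest KO library had less than the lowest WT library by over 1 kb. Lhx2, needed for the eye and cortex, went from 18200 ± 1007 to 11111 ± 1436 bp.

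In H3K27ac reads per kb of call, 37 members could be tested, and Six3 alone passed as lower, while none passed as higher. Of the 14625 genes in that edgeR test, 2.36% were lower and 6.97% higher. Six3 had 61.7, 60.6 and 63.4 reads per kb in the WT and 54.2, 58.4 and 46.4 in the KO, with no overlap. It fell by 0.25 ± 0.06 (SE) on the log2 scale (edgeR quasi-likelihood test, Benjamini-Hochberg adjusted p = 0.0348). The call was lost on leaving out WT replicate 1, 2 or 3 or KO replicate 1 or 3 (adjusted p in edgeR 0.0791 to 0.106), and over all alternatives that adjusted p ran from 0.00558 to 0.185. Input reads per kb there were 33.1 in the WT and 29.2 in the KO. The median log2 fold change of the 37 was −0.11, against −0.007 over all genes tested, and 12 had an unadjusted p under 0.05 with a lower value and 2 (Nkx6-1 and Lhx3) with a higher one, against 10.3% and 14.7% of all genes tested. The log2 KO/WT of input in the same H3K27ac calls had a median of −0.08 over the members and −0.06 over all genes, and its part in the result was not tested.

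**Figure D3:**
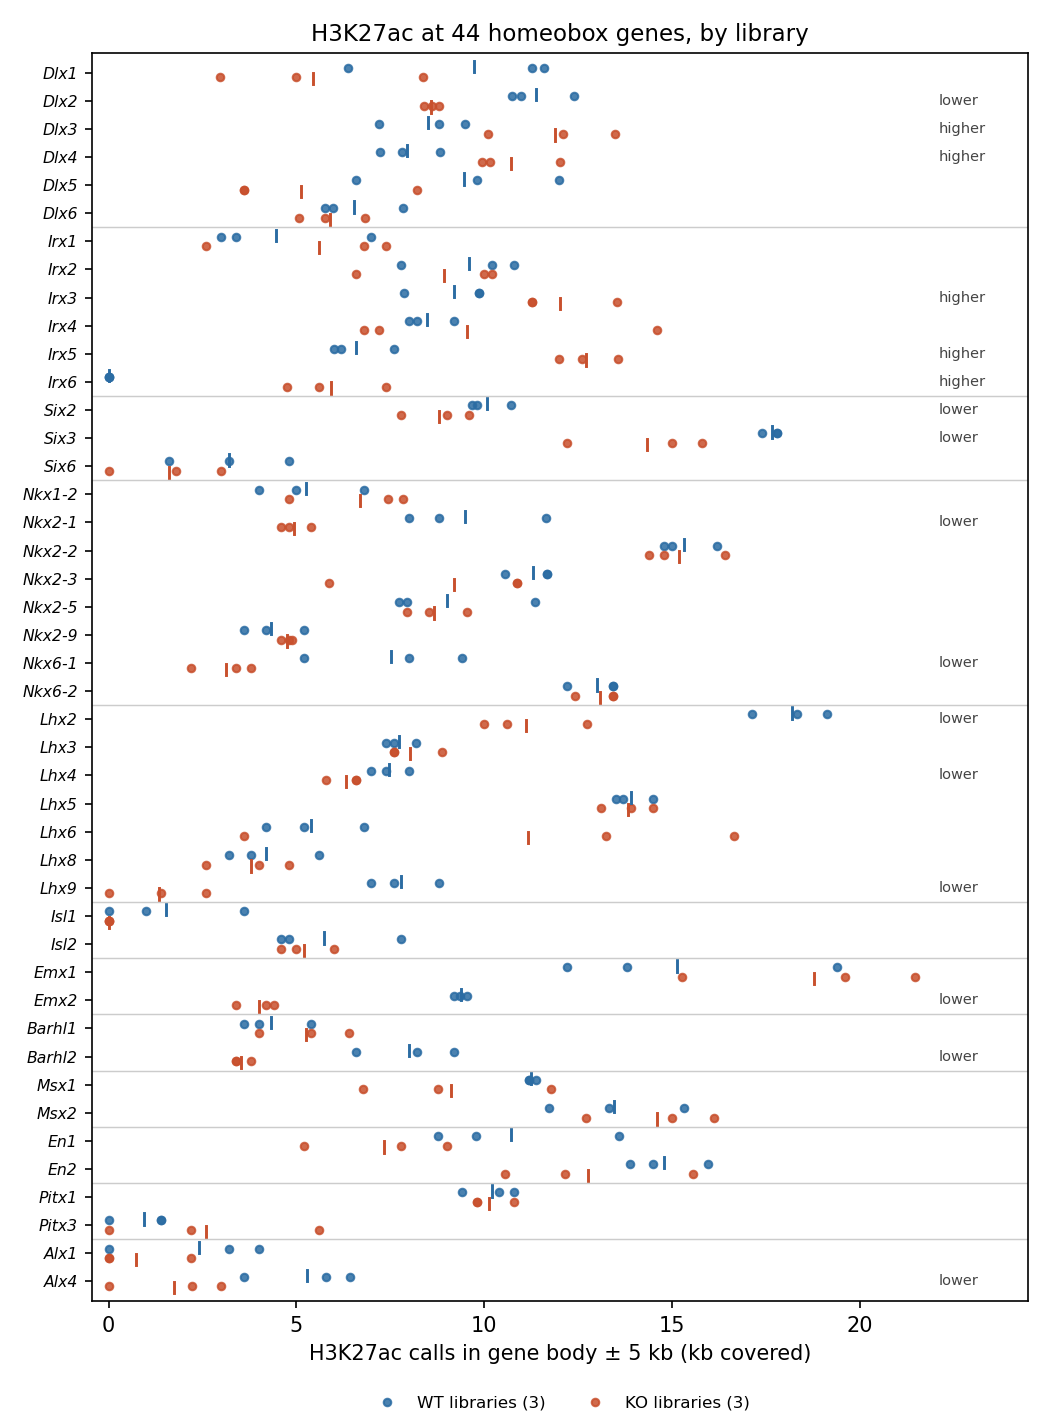
Kilobases of each member's window (gene body with 5 kb on either side) under H3K27ac calls, with 1 point per library (WT blue, KO red) and a tick at each group mean. Among members marked lower, Emx2 has 9.2 to 9.6 kb in the WT and 3.4 to 4.4 kb in the KO, while Irx6, marked higher, has 0 in the WT and 4.8 to 7.4 kb in the KO.

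The Irx genes of chromosome 8 stood apart from the other members. Irx6 was the only member whose calls of a mark split fully by genotype (3 of 3 libraries against 0 of 3), as it had no H3K27ac call in any WT library, and 5600, 7400 and 4756 bp in the KO libraries. Of all genes, 0.175% (29 of 16607) gained H3K27ac in this way. Irx5, a cardiac and retinal regulator, had 7600, 6000 and 6200 bp of H3K27ac in the WT and 12600, 12000 and 13576 bp in the KO. Irx3, which acts in neural tube and limb, had 9867, 7867 and 9867 bp in the WT and 13543, 11267 and 11267 bp in the KO. At both, every KO library was above every WT library. In H3K27ac reads per kb of call the log2 fold changes were 0.10 ± 0.13 (SE) at Irx3 and −0.14 ± 0.08 at Irx5, and neither passed in edgeR (adjusted p 0.677 and 0.303).

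Input moved with these results. In the H3K27ac calls at Irx3, input reads per kb were 27.2, 26.5 and 27.6 in the WT lists and 39.7, 42.1 and 42.3 in the KO lists, a log2 KO/WT of 0.61. The values of a genotype come from the same input, counted over the calls of each library. At Irx5 the log2 KO/WT of input was 0.78. The other 35 members with H3K27ac calls in all libraries lay between −0.49 and 0.13. Irx3 (chr8:91798525-91802067), Irx5 (chr8:92357625-92376286) and Irx6 (chr8:92674288-92680956) are neighbours on GRCm38. A raised input over a stretch of chromosome 8 in the KO cells cannot be told apart from a change of the marks. This holds for reads and for covered bp, since calls are made from reads. Irx1, Irx2 and Irx4, on chromosome 13, had overlapping H3K27ac coverage in the 2 genotypes.

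H3K4me1 was the other mark with a called member. Irx3 had 112.9, 106.0 and 116.2 H3K4me1 reads per kb of call in the WT and 135.9, 139.8 and 137.6 in the KO, with no overlap. It rose by 0.33 ± 0.05 (SE) on the log2 scale (edgeR quasi-likelihood test, Benjamini-Hochberg adjusted p = 0.00239), and no other member of the 44 tested passed in either direction. The count depended on the fit, since 6 members passed with input correction (1 higher, 5 lower) and 8 of 16 with calls of like length, at a ratio of at least 0.8 (1 higher, 7 lower). Of the 16679 genes tested, 5.62% were higher and 2.66% lower. Input in the same calls was 27.7 reads per kb in the WT and 41.9 in the KO, a log2 KO/WT of 0.60, and once each count was corrected for input the value turned to −0.32 (edgeR adjusted p = 0.00436). Irx5 and Irx6 had 0.26 ± 0.08 and 0.21 ± 0.07 in the uncorrected fit, and did not pass (adjusted p in edgeR 0.0979 and 0.0943), beside input changes of 0.62 and 0.20.

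**Figure D4:**
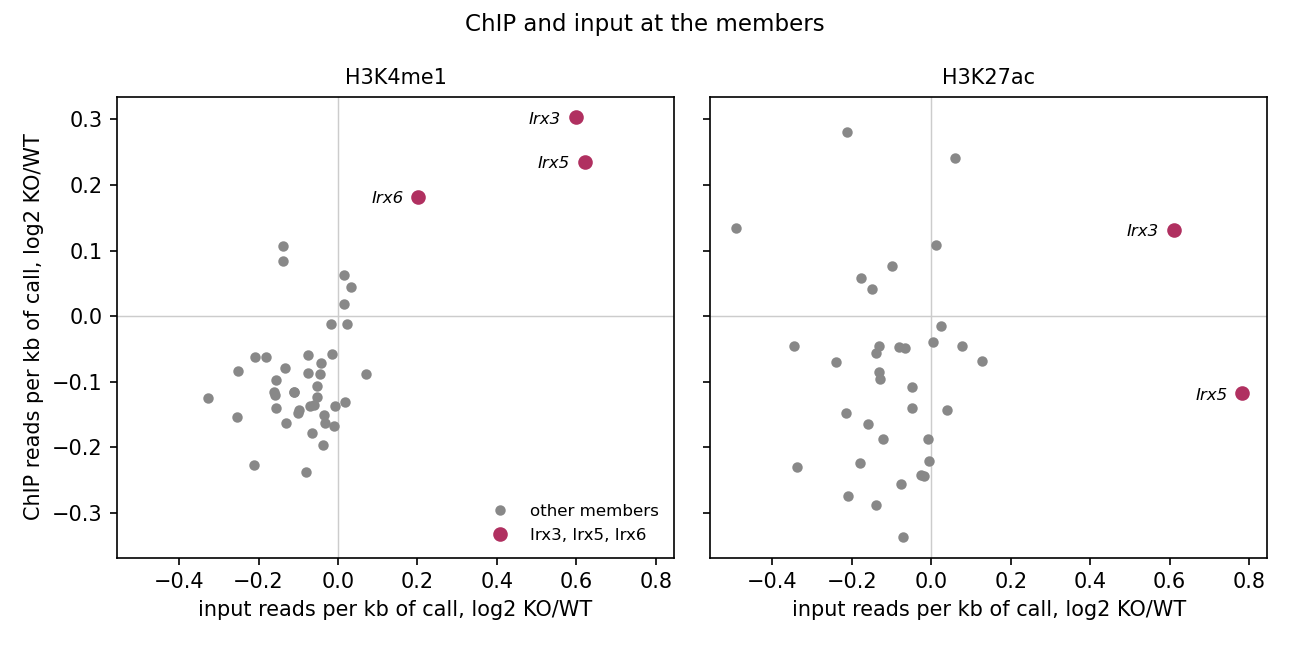
Log2 KO/WT of ChIP reads per kb of call against that of input reads per kb in the same calls, for H3K4me1 (44 members) and H3K27ac (37 members with calls in all 6 libraries), from group means without further scaling. Irx3 and Irx5 lie far to the right of all other members in both panels, with input changes of 0.60 and 0.62 for H3K4me1 and 0.61 and 0.78 for H3K27ac. Both marks shared the same input of each genotype, so the panels are not independent in input.

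In covered bp, H3K4me1 lay over less of the window in every KO library at 11 members and over more at 1, against 15.4% and 11.7% of 17552 genes. The 11 were Lhx4, Lhx2, Lhx8, Nkx6-1, Nkx2-1, Dlx5, Dlx6, Isl1, Isl2, Pitx1 and Emx2, and the 1 was Irx6. The pattern was not particular to the members. Other homeobox genes had 21 lower and 1 higher of 60, Hox genes 17 and 0 of 39, and Pax genes 4 and 0 of 9. Genes with H3K27me3 over more than 80% of the WT window had 255 lower and 51 higher of 1095. Lhx4, a gene of pituitary and motor neurons, had 37170, 28770 and 28570 bp in the WT and 18200, 25800 and 22370 bp in the KO. Nkx2-1 had 14151, 13108 and 13843 bp against 11000, 10800 and 10000 bp. Isl1, which marks motor neurons and cardiac progenitors, had 18209, 18209 and 20209 bp against 16809, 14489 and 17089 bp. Irx6 had 11600, 8800 and 9200 bp in the WT and 13756, 12200 and 12600 bp in the KO. Coverage of the merged windows averaged 71.6 ± 0.28% for WT and 67.1 ± 1.0% for KO libraries (SD, n = 3 each), with no overlap between the genotypes, while the genome's coverage changed by −1.42%.

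H3K4me1 coverage was lower in every KO library both near the start sites and away from them. Within 1 kb of the 5′ ends the members had 87808 ± 395 bp for WT and 86828 ± 32 bp for KO libraries (SD, n = 3 each), or −1.12%, of 88044 bp that could be covered, so the WT was close to full there. In the rest of the windows they had 584965 ± 2204 and 543739 ± 9386 bp, or −7.05%. In reads per kb, the median log2 fold change was −0.08 over the members and −0.002 over all genes, and 34 of 44 were negative. At an unadjusted p under 0.05, 12 were lower and 3 (Irx3, Irx5 and Irx6) higher, against 9.88% and 12.2% of all genes tested in edgeR. Input in the same calls had a median log2 KO/WT of −0.07 over the members and −0.06 over all genes. At an adjusted p under 0.05 in the same edgeR test, the members had 0 lower and 1 higher of 44. By that stricter rule other homeobox genes had 13 lower and 2 higher of 59, and Hox genes 26 lower and 0 higher of 39. Among all genes tested, 2.66% were lower and 5.62% higher by it. Hox genes of a cluster lie under shared calls, as do Dlx1 with Dlx2, Dlx3 with Dlx4 and Dlx5 with Dlx6 among the members, so these genes are not independent.

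H3K9me3 was called in any library at 12110 of the 21938 protein-coding genes and at 13 members. It was lower in every KO library at 4 of them (Dlx1, Pitx1, Irx4 and Six3) and higher at none, against 11.4% and 4.76% of 12110 genes. Six3 had 3102, 1902 and 5102 bp in the WT and 1302, 902 and 302 bp in the KO. Irx4 had 2400, 3000 and 4400 bp against 2200, 1800 and 1800 bp, which is a small gap. Pitx1, which specifies the hindlimb, had 2800, 3600 and 3550 bp in the WT and 1400, 0 and 0 bp in the KO. Dlx1 had 2181, 2600 and 2000 bp in the WT and 1600, 0 and 0 bp in the KO. The same call reached into the window of Dlx2, its neighbour, over 193 to 793 bp in the WT. Over the genome, H3K9me3 coverage went from 204.5 Mb in the WT to 181.0 Mb in the KO, a change of −11.5%. KO replicates 2 and 3 had the fewest calls, 35979 and 40345, against 44671 to 52748 in the WT. With equal numbers of top-ranked calls Pitx1 turned to a higher mean in the KO, and the other 3 stayed lower.

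Nkx2-1 and Lhx8 also had H3K9me3 in at least 3 libraries. Nkx2-1 had 4000, 3200 and 3400 bp in the WT and 3643, 4600 and 3800 bp in the KO, with 64.2, 64.4 and 59.4 reads per kb in the WT and 80.3, 75.7 and 85.0 in the KO. Its reads per kb did not overlap, and the log2 fold change was 0.37 ± 0.14 (SE; edgeR adjusted p = 0.327). Input in the same calls was 20.5, 20.3 and 21.2 reads per kb in the WT lists and 23.4, 25.0 and 25.0 in the KO lists, a log2 KO/WT of 0.24, and its part was not tested. Lhx8, a gene of cholinergic neurons, had 4600, 1600 and 5000 bp against 3000, 1800 and 2200 bp, with overlapping groups. Irx4, Six3, Nkx2-1 and Lhx8 were the 4 members with calls in all 6 libraries, and none passed in edgeR, where 0.261% of 6130 genes were higher and 0.832% lower. At an unadjusted p under 0.05 there was 1 (Nkx2-1, higher), against 5.27% of genes higher and 6.62% lower, and DESeq2 called 0. H3K9me3 coverage of the merged windows averaged 2.44 ± 0.47% for WT and 1.22 ± 0.42% for KO libraries (SD, n = 3 each), so each of these values rests on a few calls.

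Across marks, covered bp were lower in every KO library for at least 1 mark at 26 members and higher for at least 1 at 6, and 14 members had neither. Of the 20244 genes with a call of any of the 5 marks, 28.8% were lower and 40.5% higher in this way, and 40.2% were neither, against 59.1%, 13.6% and 31.8% of the members. These shares are not like for like. All 44 members had calls of H3K4me3, H3K27me3, H3K27ac and H3K4me1, against 15151, 13437, 16607 and 17552 of all genes. Members thus had more marks in which to differ. Emx2 and Nkx2-1 were lower in H3K4me3, H3K27ac and H3K4me1, while H3K27me3 covered their whole windows in all 6 libraries. Six3 was lower in H3K4me3, H3K9me3 and H3K27ac. Another 6 members were lower in a pair of marks, namely Barhl2 (H3K4me3 and H3K27ac), Lhx2, Lhx4 and Nkx6-1 (H3K27ac and H3K4me1), Irx4 (H3K4me3 and H3K9me3) and Pitx1 (H3K9me3 and H3K4me1). Dlx3, a gene of skin and bone, went opposite ways, with H3K4me3 at 1149, 567 and 1607 bp in the WT and 384, 380 and 468 bp in the KO and H3K27ac at 9496, 7200 and 8800 bp against 12096, 10096 and 13496 bp. Irx6 was higher in H3K27me3, H3K27ac and H3K4me1, and there a raised input on chromosome 8 cannot be told apart from a change of the marks.

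**Figure D5:**
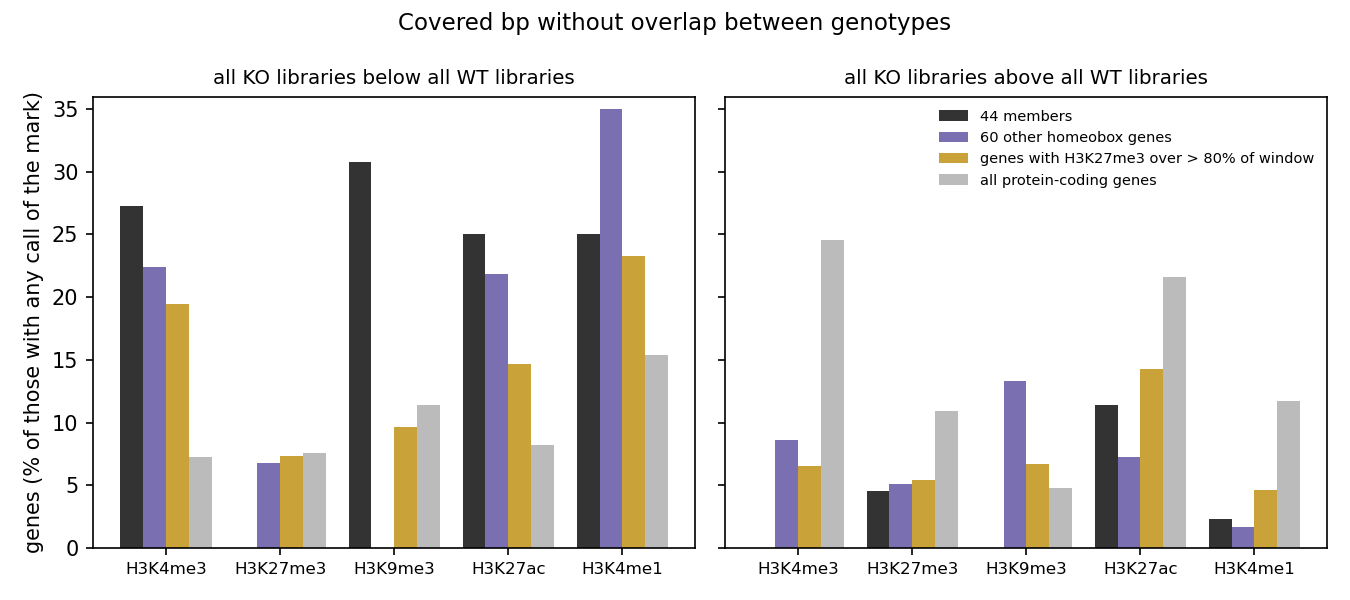
Share of genes whose 3 KO libraries lie all below (left) or all above (right) the 3 WT libraries in covered bp, as a percentage of the genes of each list that have any call of the mark (members black, 60 other homeobox genes purple, genes with H3K27me3 over more than 80% of the WT window yellow, all protein-coding genes grey). Members stand at 27.3% lower and 0% higher for H3K4me3, against 7.25% and 24.5% of all protein-coding genes, and the H3K9me3 bar of the members rests on 13 genes.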

How the data were processed

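ChIP-seq of 5 histone modifications in IκBα-WT and IκBα-KO mESCs (3 libraries each) was read from the deposited region lists, with groups and replicate numbers taken from the labels. Reads were trimmed with Trim Galore 0.6.6. The methods name Bowtie2 2.4.4 and GRCm38 for H3K4me3, H3K27me3 and H3K4me1 and no aligner for H3K27ac or H3K9me3, although the submitters' processing notes list Bowtie2 2.4.4 for all samples. The authors discarded the Drosophila spike-in of H3K27me3, so the values are not on a spike-in scale, and removed blacklisted regions. For H3K4me3 the authors deposited MACS2 2.2.7.1 peaks with a score, −log10 values of p and q and a fold enrichment. For the other marks the authors deposited epic2 (0.0.52) regions with a count of ChIP reads, a count of input reads, a p-value, an FDR, a score and a log2 fold change over input, called per library at an FDR under 0.05. The labels name 1 antibody for H3K27ac and H3K4me1, whereas the methods give a different H3K27ac antibody.

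Covered bp are the window bases under at least 1 call. A wider call holds more reads, so ChIP reads of the calls that touch a window were tested in edgeR 4.0.16 (R 4.3.3; TMM, quasi-likelihood, Benjamini-Hochberg) with the summed call length as offset, over all protein-coding genes called in all 6 libraries of a mark. SEs were derived from the log2 fold change and F. DESeq2 1.42.0, other scalings, windows and thresholds, and leaving out each library served as alternatives. Tests on simulated data preceded the fits. Covered bp were compared by whether the genotypes overlapped and by two-sided exact permutation over 20 assignments, and p-values measure the spread between clones. Python 3.11.15, numpy 2.4.6 and pandas 2.3.3 were used, and promoters came from RefSeq (GRCm38.p6). The members, the lists and the rule for members given per library (passing edgeR, called in 3 of 3 against 0 of 3, the 4 largest H3K4me3 differences each way without overlap, or H3K9me3 in at least 3 libraries) were chosen with earlier results of these data known, and other members given per library were picked after their values were seen.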

Additional observations from a re-analysis of the deposited data

How the results depend on the processing

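Counts of members that passed in reads per kb rested on the scaling. For H3K27me3 the count of 0 became 1 with DESeq2, 2 with input correction, 7 with library totals in place of TMM, 6 without the length offset and 5 (of 13 testable) when calls had to be within 0.8 of each other's length, all lower. For H3K9me3 it became 1 without the offset, and no member could be tested at the length ratio of 0.8. For H3K27ac the count of 1 became 0 near the 5′ end (1 kb), 2 with DESeq2, 2 (of 3) at the length ratio of 0.8, 4 with input correction (1 higher), 13 with library totals and 12 (1 higher) without the offset. For H3K4me1 the count of 1 became 2 with DESeq2, 8 (of 16, 7 lower) at the length ratio of 0.8, 2 in the gene body alone, 6 (5 lower) with input correction and 12 (9 lower) without the offset. Irx3 in H3K4me1 turned to −0.32 with input correction. Library totals also moved the median of all genes, to −0.14, 0.16, −0.15 and −0.003 for H3K27me3, H3K9me3, H3K27ac and H3K4me1. Leaving out 1 library gave 0 to 1, 0 to 0, 0 to 1 and 1 to 2 members in the same order (1 H3K27me3 member without WT replicate 2, 2 H3K4me1 members without KO replicate 2 or 3). Same-numbered libraries did not deviate together (r from −0.022 to 0.026), so the replicate block is given here only: it took the H3K27ac count from 1 to 0 and changed no other count of members.

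Members without overlap in covered bp numbered 14 to 19 in H3K4me3 (19 without KO replicate 3), 2 to 6 in H3K27me3 (5 or 6 without WT replicate 1 or 3 or KO replicate 1 or 3), 4 to 6 in H3K9me3, 18 to 21 in H3K27ac and 13 to 20 in H3K4me1 (20 without KO replicate 2) when 1 library was left out, which leaves fewer values to overlap. In the gene body alone they numbered 1 (H3K27me3), 1 (H3K9me3), 10 (H3K27ac) and 3 (H3K4me1), and within 1 kb of the 5′ end 0, 0, 2 and 1. Leaving out Irx3, Irx5 and Irx6, which was chosen after the data were seen, left 1 for H3K27me3. Directions turned for H3K4me3 at Lhx5 (103 bp) and Barhl2 (492 bp) within 1 kb of the 5′ end, for H3K27ac in the gene body at Dlx2 (131 bp) and Dlx3 (−561 bp), and with equal numbers of top-ranked calls for H3K27ac at Dlx2 (2202 bp) and Lhx4 (133 bp) and for H3K9me3 at Pitx1 (467 bp). The KO minus WT share of the windows, −1.29, 0.83, −1.22, −3.34 and −4.50 percentage points for H3K4me3, H3K27me3, H3K9me3, H3K27ac and H3K4me1, ran without 1 library from −1.87 to −0.75, 0.081 to 1.56, −1.45 to −0.97, −4.18 to −2.49 and −4.87 to −3.93. With equal numbers of calls it was −0.50 for H3K9me3 and 0.29 for H3K27ac. In the gene body it was −0.68 for H3K9me3 and −3.41 for H3K4me1, and within 1 kb of the 5′ end −3.33, −0.15, −7.47 and −1.11 for H3K4me3, H3K9me3, H3K27ac and H3K4me1. Without the 3 Irx genes it was −5.26 for H3K27ac and −5.30 for H3K4me1. The shares of all genes under these settings are not given here, and the cause of these shifts was not tested. Coverage has no read depth behind it for H3K4me3, and calls near a caller's threshold come and go between libraries.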
